A study of Mus musculus with 40 samples.

Results

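The genes described here are 10 members of the fibroblast growth factor (FGF) pathway, chosen by symbol from the 26411 genes in the count files and followed across 6 genotypes of whole mouse embryos at embryonic day (E) 9.5. They are the ligand genes *Fgf3*, *Fgf8*, *Fgf10* and *Fgf15*, the binding protein gene *Fgfbp3*, the feedback inhibitor genes *Spry1*, *Spry2*, *Spry4* and *Dusp6*, and the transcription factor gene *Etv4*. The study asked how far the functions of the histone acetyltransferases KAT6A and KAT6B depend on their enzymatic activity. The 24 embryos, 4 of each genotype from 17 litters, were wild type at both loci (WT), null for *Kat6a* (labelled cfd/cfd, *Kat6a*-/-), null for *Kat6b* (labelled dec/dec, *Kat6b*-/-), homozygous for *Kat6a* G656E (*Kat6a* E/E), homozygous for *Kat6b* G577E (*Kat6b* E/E), or homozygous for both point mutations (double E/E). Each single mutant was wild type at the other locus, all mutations were germline and so present in every cell, and the point mutants were made in C57BL/6J mice. The point mutations replace a glycine of the acetyltransferase domain with glutamic acid, whereas the null alleles lack several exons. Each embryo was 1 library, made from extracted total RNA with a TruSeq RNA kit and sequenced without strand information.

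FGF ligands are secreted, bind receptor tyrosine kinases together with heparan sulphate and activate the RAS-ERK cascade. ERK activity in turn induces *Etv4* and *Etv5*, which encode ETS transcription factors, as well as the Sprouty genes and *Dusp6*, whose products dampen the cascade, so that transcripts of these targets are widely read as a local record of FGF signaling. In the E9.5 embryo, FGF sources include the boundary of midbrain and hindbrain, the tail bud, the pharyngeal arches and the limb buds, which together make up a small part of a whole embryo.

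The 24 libraries held 8401990 to 23339359 counts, with a median of 15317052. All 10 members passed the filter on low counts, with 14 counts (*Fgf3*) to 2894 counts (*Dusp6*) in a library. *Kat6a* was at 169 to 186 CPM (counts scaled to library size by the trimmed mean of M values) in WT embryos and at 160 to 171 in *Kat6a*-/- embryos, and *Kat6b* was at 38.2 to 42.6 in WT and at 52.0 to 58.3 in *Kat6b*-/- embryos (log2 fold change 0.41, SE 0.065, limma FDR = 0.00441). These counts cover all exons, including those outside the deleted parts, and so check neither the null alleles nor the point mutations. The embryos were described as male, but 3 libraries (*Kat6a*-/- replicate 2 and *Kat6b*-/- replicates 2 and 3) held at least 527 CPM of *Xist* and at most 0.199 CPM of the Y-linked *Ddx3y*. The other 21 held at most 0.514 CPM of *Xist* and at least 40.6 CPM of *Ddx3y*. These values are those of female embryos for the 3 libraries with *Xist* and of male embryos for the other 21. All 3 were of null genotypes and none was WT, so sex is not balanced in the comparisons of either null genotype with WT. WT replicate 4 and *Kat6a*-/- replicate 4 had the highest levels of the visceral endoderm genes *Apoa4* (6.32 and 7.87 CPM) and *Cubn* (20.7 and 12.9 CPM). Double E/E replicate 2 stood apart from its own genotype: a chi-square comparison of counts gave 22.1 to 31.2 per degree of freedom against the other 3 embryos and at most 15.4 for any other pair of replicates, and its leverage in the model, the weight of a library in its own fitted value, was 0.88, the highest of the 24. All 8 markers of embryonic tissues were detected in every library, and 2 of 5 trophoblast markers (*Tpbpa* and *Psg21*) were at 0 in all 24. Of the others, *Prl3d1* was at 0 in 22 libraries and *Prl2c2* in 20. *Ascl2* was detected in every library, at 0.0656 to 3.16 CPM, with the highest value in a double E/E embryo.

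Per kilobase of gene length, *Dusp6*, which encodes a phosphatase of ERK, had the highest level of the members, at 44.7 ± 4.36 CPM per kb (mean ± SD, n = 24), and its range overlapped with that of no other member. *Spry2* followed at 18.8 ± 2.08, *Spry1* at 16.2 ± 1.85, *Fgfbp3* at 13.7 ± 2.82, *Fgf15* at 13.6 ± 2.91, *Etv4* at 12.2 ± 1.88 and *Fgf8* at 9.15 ± 1.36 CPM per kb, each with a range overlapping that of the next. *Fgf10* (3.48 ± 0.552), *Spry4* (3.30 ± 0.638) and *Fgf3* (2.32 ± 0.708) formed the lowest group, and their ranges overlapped with each other but not with that of *Fgf8*. The spread of CPM over all 24 embryos, as a coefficient of variation, was lowest for *Dusp6* (9.76%), *Spry2* (11.1%) and *Spry1* (11.4%) and highest for *Fgf3* (30.5%), *Fgf15* (21.4%) and *Fgfbp3* (20.6%).

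**Figure D1:**
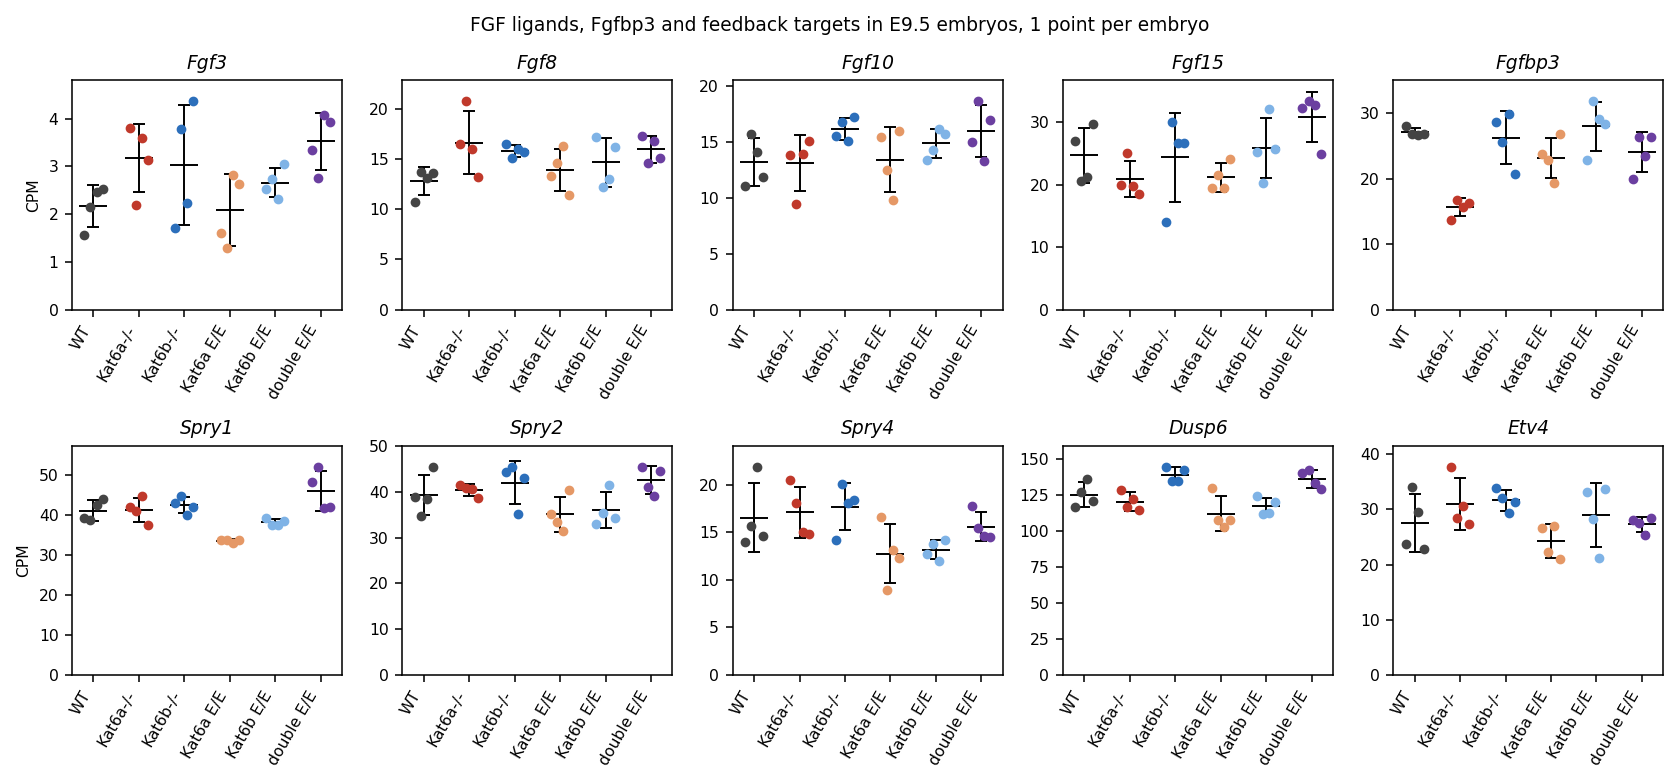
Level of each member in CPM (vertical axes, starting at 0) in the 24 E9.5 embryos, 1 point per embryo, grouped by genotype, with the mean and SD of 4 embryos in black. *Fgfbp3* in *Kat6a*-/- embryos lies between 13.7 and 16.8 CPM, below all 20 embryos of the other genotypes, and the 4 *Kat6a* E/E embryos lie below every other embryo for *Spry1*.

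*Fgfbp3* had the largest change of the members. It encodes a secreted protein that binds FGFs and can release them from the extracellular matrix, and it lies on the minus strand at chr19:36894950-36897147 (GRCm39) with 2 exons. In WT embryos it was at 28.1, 26.8, 26.6 and 26.9 CPM, and in *Kat6a*-/- embryos at 13.7, 16.8, 15.6 and 16.3 CPM. The ranges were far apart, and the *Kat6a*-/- level was 0.614 times that of WT (95% confidence interval 0.523 to 0.72, log2 fold change -0.70, SE 0.112, limma FDR = 0.00151). Between litter mates, *Kat6a*-/- replicate 2 and WT replicate 1, the log2 difference was -0.74. In bulk samples, fewer cells of a type and less RNA per cell cannot be told apart.

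In *Kat6a* E/E embryos *Fgfbp3* was at 23.8, 22.8, 19.4 and 26.8 CPM, between the WT and *Kat6a*-/- values except for 1 embryo inside the WT range. This was 1.40 times the *Kat6a*-/- level (log2 fold change 0.48, SE 0.117, limma FDR = 0.0351), and against WT the difference was not called (log2 fold change -0.22, FDR = 0.461). The call against *Kat6a*-/- held in 9 of 24 fits that left out 1 library and was lost without any 1 of the WT and *Kat6a*-/- libraries, without *Kat6a* E/E replicate 1, 2 or 4, *Kat6b*-/- replicate 1 or 2, *Kat6b* E/E replicate 4 or double E/E replicate 2. FDR then reached 0.115, while the log2 fold change stayed between 0.42 and 0.55. Double E/E embryos had 20.0, 26.4, 23.4 and 26.4 CPM, all below the lowest WT embryo (26.6 CPM), replicates 2 and 4 by little. Against WT this was not called (log2 fold change -0.17, FDR = 0.409). Double E/E embryos had 1.45 times the *Kat6a*-/- level, which was not called either (FDR = 0.143). Neither *Kat6b*-/- (28.7, 25.6, 29.9 and 20.8 CPM) nor *Kat6b* E/E embryos (22.8, 31.9, 29.1 and 28.3 CPM) differed detectably from WT, with intervals of the ratio to WT from 0.872 to 1.17 and from 0.913 to 1.23. The direct comparison of the null genotypes gave 0.607 times as much *Fgfbp3* in *Kat6a*-/- as in *Kat6b*-/- embryos (log2 fold change -0.72, SE 0.112, limma FDR = 0.00341). Without the 3 libraries with *Xist* this call was lost (log2 fold change -0.63, limma FDR = 0.127), and in this comparison that fit called none of the genes tested. It kept only replicates 1 and 4 of the *Kat6b*-/- embryos.

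Several markers of embryonic regions were lower in the same *Kat6a*-/- embryos. Of 8 embryonic tissue markers, *Foxa2*, of floor plate and endoderm (log2 fold change -1.03, FDR = 0.0114), *Sox2*, of neural progenitors (-0.33, FDR = 0.0151), and *Pax6*, of the neural tube and eye (-0.28, FDR = 0.043), fell, and the epithelial gene *Epcam* rose (0.43, FDR = 0.0319). Their summed level was 587 to 709 CPM in WT and 530 to 598 CPM in *Kat6a*-/- embryos, and none of the 8 was at 0. *Pax2*, 1 of 6 midbrain-hindbrain boundary markers (-0.80, FDR = 0.0128), and *Tbx1*, 1 of 5 pharyngeal markers (-0.77, FDR = 0.000171), fell as well. The summed levels of these lists were 62.4 to 85.5 and 132.2 to 168.3 CPM in *Kat6a*-/- embryos. In WT they were 78.4 to 111 and 168.2 to 181.5 CPM, so both ranges overlapped. The sum of 6 tail bud markers went the other way, with 47.2 to 104 CPM in *Kat6a*-/- and 26.1 to 57.3 in WT embryos. The part of these shifts in the *Fgfbp3* value was not tested.

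Of the ligand genes, *Fgf15* passed the test, in double E/E embryos. *Fgf15*, the mouse counterpart of human FGF19, is expressed in the neural tube at this stage and lies on the plus strand at chr7:144450268-144454690, with 3 exons. It was at 32.4, 33.4, 32.9 and 24.9 CPM in double E/E and at 27.1, 20.7, 21.3 and 29.7 CPM in WT embryos. Of the double E/E embryos, 3 were above every WT embryo and the 4th lay inside the WT range. Replicates 1 and 3, both among the high ones, were litter mates. No litter held both double E/E and WT embryos, so a difference between litters cannot be told apart from that of genotype. The fitted ratio was 1.32 (95% confidence interval 1.16 to 1.51, log2 fold change 0.40, SE 0.093, limma FDR = 0.0183). The model held 4 surrogate variables, which stand for unmeasured variation between libraries. With 0 surrogate variables the log2 fold change was 0.33 (FDR = 0.458) and 0 of 14183 genes were called, and with 2 it was 0.28 (FDR = 0.344). The call held in 17 of 24 fits that left out 1 library and was lost without WT replicate 2 or 3, *Kat6a*-/- replicate 2, *Kat6b*-/- replicate 4 or double E/E replicate 1, 2 or 3 (FDR up to 0.132, reached without replicate 2, the library that stood apart), and without the 3 libraries with *Xist* (log2 fold change 0.35, FDR = 0.114).

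The other genotypes gave no call for *Fgf15* against WT. It was at 19.9, 25.1, 19.9 and 18.5 CPM in *Kat6a*-/- and at 19.4, 21.6, 19.5 and 24.2 CPM in *Kat6a* E/E embryos, lower on average than WT but within its range for part of the embryos (log2 fold changes -0.12 and -0.24, FDR = 0.606 and 0.374). The widest spread was in *Kat6b*-/- embryos, at 13.98, 30.1, 26.7 and 26.8 CPM, and *Kat6b* E/E embryos had 25.2, 20.3, 32.1 and 25.8 CPM. Against *Kat6a*-/-, double E/E embryos had 1.43 times as much *Fgf15* (log2 fold change 0.52, unadjusted p = 1.76e-05), but in that comparison only 1 of 14183 genes was called, and *Fgf15* had a limma FDR of 0.106.

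*Fgf3*, active in hindbrain and ear induction, lies 52094 bases upstream of *Fgf15* on the same strand (chr7:144391599-144398173), with *Fgf4* between them. *Fgf3* was at 3.34, 2.75, 4.07 and 3.92 CPM in double E/E and at 1.56, 2.14, 2.45 and 2.52 CPM in WT embryos. The ranges did not overlap, yet at 18 to 63 counts per library the change was not called (log2 fold change 0.56, SE 0.220, limma FDR = 0.162). *Fgf4*, which is needed with *Fgf8* in the tail bud, stood at 0.420 to 1.81 CPM over the 24 libraries and had a log2 fold change of 0.95 (FDR = 0.0785).

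*Fgf8*, the ligand of the midbrain-hindbrain organizer, tail bud and limb ridge, lies on the minus strand at chr19:45725237-45731354. It was at 10.7, 13.7, 13.1 and 13.6 CPM in WT embryos, at 16.5, 15.1, 16.04 and 15.7 in *Kat6b*-/- and at 17.3, 14.6, 16.9 and 15.1 in double E/E embryos. All embryos of both mutant genotypes were above all WT embryos, but neither change was called (log2 fold changes 0.28 and 0.35, SE 0.120 and 0.118, FDR = 0.336 and 0.101). *Kat6a*-/- embryos ranged from 13.3 to 20.8 CPM (log2 fold change 0.30, FDR = 0.188) and overlapped with WT. Without WT replicate 4, *Fgf8* was called in double E/E embryos (FDR = 0.0418), but it was called in none of 14 other models (FDR 0.0811 or more), among them the one without both WT replicate 4 and *Kat6a*-/- replicate 4. *Fgf10*, a mesenchymal ligand of limb and pharynx, had means from 13.1 CPM in *Kat6a*-/- to 16.2 CPM in *Kat6b*-/- embryos and log2 fold changes of 0.06 to 0.28 against WT, none called.

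As a group, the 4 ligand members had positive fold changes in 4 of 4 cases in *Kat6b*-/-, *Kat6b* E/E and double E/E embryos (medians 0.27, 0.16 and 0.38), in 3 of 4 in *Kat6a*-/- (0.18) and in 2 of 4 in *Kat6a* E/E embryos (0.01), whereas the median over all tested genes was between -0.01 and 0.01 in each comparison. Since the same 4 WT embryos enter all 5 comparisons, these counts are not independent. Tail bud markers (*T*, *Tbx6*, *Msgn1*, *Wnt3a*, *Cyp26a1* and *Hes7*) moved beside them: 6 of 6 were positive in *Kat6a*-/-, *Kat6b*-/- and double E/E embryos (median log2 fold changes 0.61, 0.82 and 0.65), with none called. Their summed level was 26.1 to 57.3 CPM in WT, 47.2 to 104 in *Kat6a*-/-, 53.2 to 92.5 in *Kat6b*-/- and 59.1 to 93.1 in double E/E embryos, but 24.9 to 62.6 for *Kat6a* E/E, and it was 25.4 to 61.3 for *Kat6b* E/E embryos. Their part in the ligand levels was not tested.

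The mean CPM of each of the 4 feedback inhibitors was lowest in *Kat6a* E/E embryos, but none of them was called there against WT, and the fitted fold change of *Spry4* was lower for *Kat6b* E/E. *Spry1*, an inhibitor of receptor tyrosine kinase signaling at chr3:37693897-37698755 on the plus strand, was at 33.6, 33.7, 33.0 and 33.7 CPM in *Kat6a* E/E embryos and at 39.1, 38.8, 42.5 and 43.8 CPM in WT embryos. No *Kat6a* E/E embryo reached the lowest WT embryo, and the ratio to WT was 0.826 (95% confidence interval 0.752 to 0.909). This had a log2 fold change of -0.27 (SE 0.0665, unadjusted p = 0.000334) and a limma FDR of 0.074, above the threshold, with FDR between 0.0328 and 0.284 over the other models and omissions. Between litter mates, *Kat6a* E/E replicate 1 and WT replicate 2, the log2 difference of *Spry1* was -0.21. In the same pair the other feedback inhibitors were not lower, with log2 differences of 0.02 for *Spry2*, 0.09 for *Spry4* and 0.03 for *Dusp6*.

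Against *Kat6a*-/- embryos, with 41.8, 41.0, 44.6 and 37.5 CPM, *Spry1* in *Kat6a* E/E embryos was called (ratio 0.819, log2 fold change -0.29, SE 0.0706, limma FDR = 0.0352). The call was lost in 11 of 24 fits that left out 1 library (WT replicate 1 or 3, *Kat6a*-/- replicate 1, 2 or 3, *Kat6b*-/- replicate 2 or 4, *Kat6a* E/E replicate 1, 2 or 4, or *Kat6b* E/E replicate 4), with FDR up to 0.0972 and the log2 fold change between -0.35 and -0.25. It was also lost without the 3 libraries with *Xist* (FDR = 0.0597). *Kat6b*-/- embryos (43.0, 44.6, 39.999 and 41.8 CPM) overlapped with WT. *Kat6b* E/E embryos were close together at 39.3, 37.5, 37.4 and 38.4 CPM, and double E/E embryos were at 48.1, 52.0, 41.7 and 41.9 CPM, with log2 fold changes against WT of -0.10 and 0.12 and no call. The value of 52.0 CPM is that of replicate 2, the library that stood apart, and without it the log2 fold change for double E/E was 0.08 (FDR = 0.655).

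*Dusp6* (chr10:99086564-99103361, plus strand) was the member with the most counts. It was at 117, 127, 136 and 121 CPM in WT, at 145, 135, 135 and 142 CPM in *Kat6b*-/- and at 140, 143, 133 and 129 CPM in double E/E embryos. In *Kat6a*-/- embryos it was at 128, 116, 122 and 115 CPM, in *Kat6a* E/E embryos at 130, 107, 103 and 108 CPM and in *Kat6b* E/E embryos at 124, 111, 113 and 120 CPM. No difference from WT was called, with log2 fold changes from -0.14 in *Kat6a* E/E to 0.12 in *Kat6b*-/- embryos. Without *Kat6a* E/E replicate 1, the highest of its genotype, the difference for *Kat6a* E/E was called (log2 fold change -0.22, limma FDR = 0.0393). Replicate 1 was also the only *Kat6a* E/E embryo with a WT litter mate, replicate 2, and the log2 difference from it was 0.03. Without replicate 1, a difference between litters cannot be told apart from that of genotype. The embryos of *Kat6b* E/E and of *Kat6a*-/- were all below those of *Kat6b*-/-, by 0.22 (SE 0.0551, limma FDR = 0.219) and 0.20 (SE 0.0543, FDR = 0.0617) on the log2 scale. The latter was called in 5 of 14 other models, among them the one without the litter block. Calls also came from edgeR and DESeq2 with the same surrogate variables, but these fits hold no litter term and treat litter mates as independent.

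*Spry2* and *Spry4*, paralogs of *Spry1*, and the ETS gene *Etv4* gave no call in any comparison. *Spry2* had its lowest mean in *Kat6a* E/E (35.2 ± 3.83 CPM, SD, n = 4) and its highest in double E/E embryos (42.6 ± 2.97), with 39.4 ± 4.42 in WT. *Spry4* was at 12.7 ± 3.13 CPM for *Kat6a* E/E, at 13.2 ± 0.988 for *Kat6b* E/E and at 16.5 ± 3.65 for WT embryos (log2 fold changes -0.32 and -0.39, limma FDR = 0.368 and 0.998). *Etv4* was at 24.2 ± 3.04 CPM in *Kat6a* E/E embryos, at 27.6 ± 5.26 in WT and at 31.0 ± 4.70 and 31.6 ± 1.86 in the *Kat6a*-/- and *Kat6b*-/- embryos, and its fold changes against WT lay between -0.13 and 0.09 on the log2 scale.

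Over the 4 feedback inhibitors together, the fold change against WT was negative for 4 of 4 in both single point mutants (median -0.21 in *Kat6a* E/E, -0.11 in *Kat6b* E/E), positive for 4 of 4 in *Kat6b*-/- embryos (median 0.05), and positive for 3 of 4 in *Kat6a*-/- (median 0.01) and double E/E embryos (median 0.10). Comparisons with WT share the WT embryos. Of the immediate-early genes, which ERK and tissue handling can both induce, 4 of 5 tested had positive fold changes in either single point mutant (medians 0.17 for *Kat6a* E/E, 0.58 for *Kat6b* E/E), none called, and the summed level of the list was 152 to 168 CPM in WT, 155 to 184 for *Kat6a* E/E, with 151 to 217 for *Kat6b* E/E embryos. The high values of *Fos*, *Fosb* and *Egr1* lay in 1 litter of each genotype. *Fos* was at 15.1 and 7.36 CPM in the *Kat6b* E/E litter mates, replicates 1 and 2, and at 1.60 and 2.01 CPM in replicates 3 and 4 from other litters. In the *Kat6a* E/E litter mates, replicates 2 and 3, it was at 7.07 and 5.71 CPM, and in replicates 1 and 4 at 2.32 and 2.06 CPM. The part of these genes in the feedback levels was not tested.

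**Figure D2:**
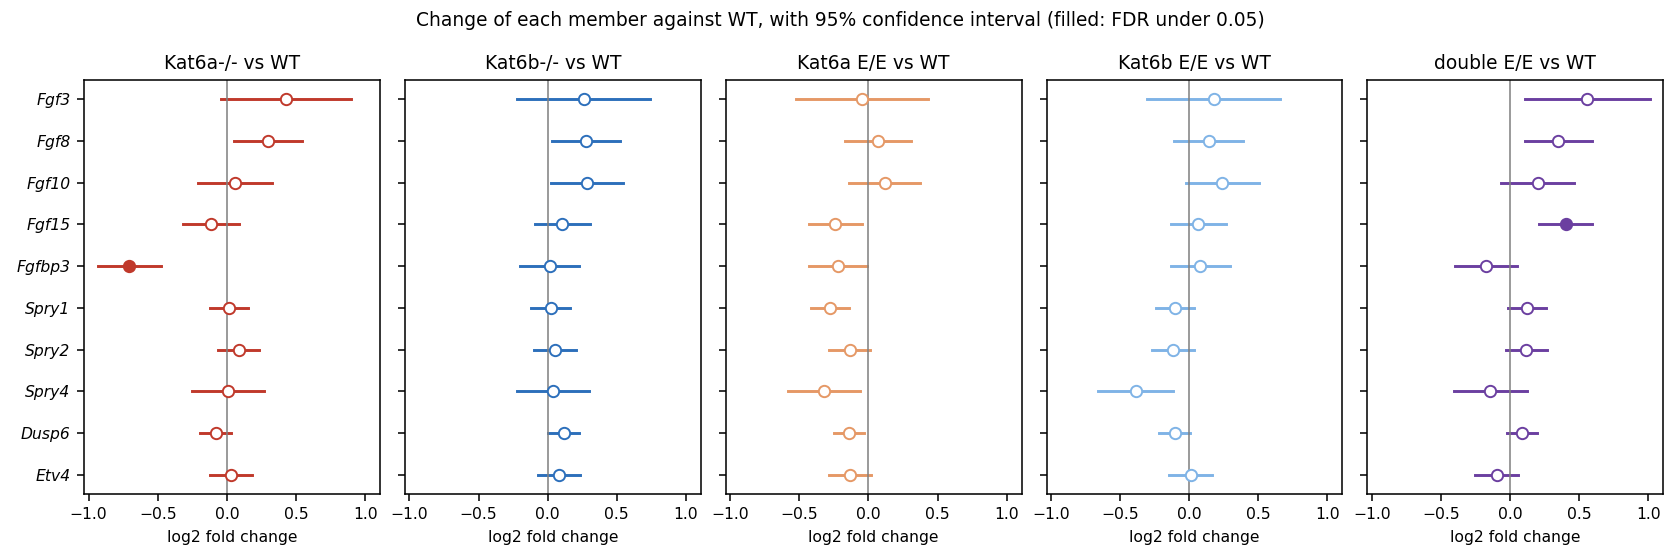
Log2 fold change against WT (horizontal axes) of the 10 members in the 5 mutant genotypes, with 95% confidence intervals from the model across all genes. Only *Fgfbp3* in *Kat6a*-/- embryos (-0.70) and *Fgf15* in double E/E embryos (0.40), drawn as filled points, had FDR under 0.05.

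Calls were few among the members, as among all genes. Against WT, 1 of 10 members was called in *Kat6a*-/- embryos (2.64% of 14183 genes), 0 in *Kat6b*-/- (0.508%), 0 in *Kat6a* E/E (0.275%), 0 in *Kat6b* E/E (0% of genes) and 1 in double E/E embryos (2.91%). At an unadjusted limma p under 0.05 there were 2 members in *Kat6a*-/- (16.9% of genes), 3 in *Kat6b*-/- (12.1%), 5 in *Kat6a* E/E (10%), 1 in *Kat6b* E/E (4.41%) and 3 in double E/E embryos (18.2%). In *Kat6a* E/E embryos all 5, *Spry1*, *Spry4*, *Dusp6*, *Fgf15* and *Fgfbp3*, were lower than in WT. DESeq2 called 1 member in *Kat6a* E/E embryos, *Spry1*, and the edgeR quasi-likelihood test with the same surrogate variables called none. The shares of genes given here are those of limma and do not apply to these tools, which hold no litter term. Embryos of a mutant genotype and WT did not overlap for 1 member in *Kat6a*-/- (11.9% of genes), 1 in *Kat6b*-/- (6.61%), 1 in *Kat6a* E/E (4.94%), 0 in *Kat6b* E/E (2.31%) and 3 in double E/E embryos (7.31%).

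Between mutant genotypes, 2 members were called in *Kat6a* E/E against *Kat6a*-/- embryos, *Fgfbp3* upwards and *Spry1* downwards (1.60% of genes), and 1, *Fgfbp3*, between the null genotypes (1.64%). None was called in *Kat6b* E/E against *Kat6b*-/- (0.0353%), in double E/E against *Kat6a*-/- (0.00705%) or in double E/E against *Kat6b*-/- embryos (0.212%). At an unadjusted limma p under 0.05, 5 members stood out in *Kat6a* E/E against *Kat6a*-/- embryos (15.6% of genes) and 3 between the null genotypes (17.3%). The other comparisons had 3 (8.83%), 3 (10.4%) and 2 members (10.7%). In these other comparisons DESeq2 called 1, 2 and 0 members, to which the limma shares of genes do not apply. Ranges did not overlap for 3 members, *Fgfbp3*, *Spry1* and *Etv4*, in *Kat6a* E/E against *Kat6a*-/- (8.35% of genes) and for 3, *Spry1*, *Spry4* and *Dusp6*, all lower, in *Kat6b* E/E against *Kat6b*-/- embryos (3.50%). They did not overlap for 3 members between the null genotypes (11%), for 2 in double E/E against *Kat6a*-/- (6.68%) and for 1 in double E/E against *Kat6b*-/- embryos (3.17%). Over all 6 genotypes at once, a moderated F test called 4 members (3.25% of genes): *Fgfbp3* (FDR = 0.00174), *Fgf15* (0.00791), *Spry1* (0.0241) and *Dusp6* (0.0329). At an unadjusted p under 0.05 it gave 6 members (19.2% of genes). With 0 surrogate variables the F test called none of the members. Of 12 other models it called *Fgf15* in 8 (FDR up to 0.504), losing it also with 2 surrogate variables, in edgeR without surrogate variables and without the 3 libraries with *Xist*, and it called *Dusp6* in 10, losing it also without the 2 libraries highest in visceral endoderm genes (FDR = 0.1245). *Dusp6* lost its call in 8 of 24 fits that left out 1 library (WT replicate 2, 3 or 4, *Kat6b*-/- replicate 1, 2 or 4, *Kat6a* E/E replicate 4 or *Kat6b* E/E replicate 4), *Fgf15* without double E/E replicate 2 or 3, and *Spry1* without WT replicate 3 or *Kat6a* E/E replicate 4.

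The double E/E embryos were also set against the sum of the single point mutant changes, a comparison that asks whether both mutations together act as the changes of each would add up. For the 4 feedback inhibitors the double E/E value was above that sum, by 0.50 for *Spry1* (SE 0.0988, unadjusted p = 2.99e-05), 0.33 for *Dusp6* (SE 0.0787), 0.37 for *Spry2* (SE 0.106) and 0.57 for *Spry4* (SE 0.189) on the log2 scale. *Fgf15* was above it by 0.58 (SE 0.138). In this comparison 0 of 14183 genes passed the adjustment in limma (0%), 5 of 10 members against 6.42% of genes had an unadjusted p under 0.05, and the limma FDR of these 5 was 0.212 to 0.561. DESeq2, without a litter term, called 1 member, *Spry1* (FDR = 0.0413), and the limma share of genes does not apply to that call. Without double E/E replicate 2, the difference was 0.48 for *Spry1* (limma FDR = 0.288) and 0.52 for *Fgf15* (FDR = 0.532). Summed single changes and double E/E values share the WT embryos, so the spread of 4 WT embryos enters both.

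**Figure D3:**
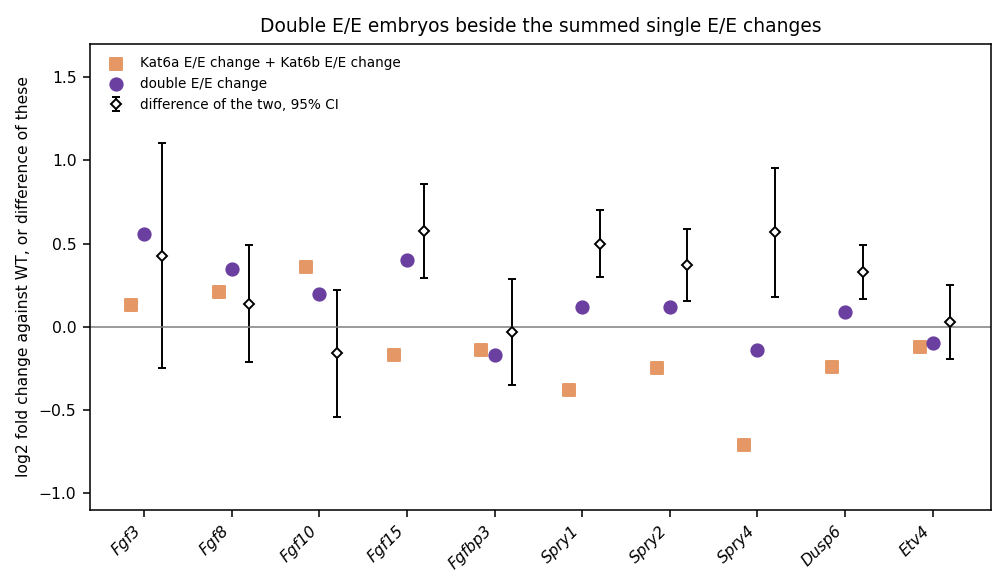
For each member, the added log2 fold changes of both single point mutants (squares), the double E/E log2 fold change (circles) and the difference between them with its 95% confidence interval (diamonds). The intervals of *Fgf15*, *Spry1*, *Spry2*, *Spry4* and *Dusp6* lie above 0, and none of the differences passed adjustment over all genes.

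Of 58 other FGF pathway genes listed, 49 passed the filter on low counts, and 1 was called against WT. *Flrt3*, which encodes a membrane protein that binds FGF receptors, rose in *Kat6a*-/- (log2 fold change 0.32, SE 0.046, limma FDR = 0.000434) and in double E/E embryos (0.18, FDR = 0.0397) and was lower in *Kat6a* E/E than in *Kat6a*-/- embryos (-0.31, FDR = 0.00148). The receptor gene *Fgfr1* had means from 206 to 220 CPM over the genotypes and log2 fold changes against WT between -0.06 and 0.01. *Fgfr2* was lower in *Kat6a* E/E than in *Kat6a*-/- embryos (-0.22, SE 0.048, FDR = 0.0188), at 123 ± 4.05 against 146 ± 8.77 CPM (SD, n = 4), with 139 ± 8.16 in WT. *Fgfr3* and *Fgfr4* had their lowest means in *Kat6a*-/- embryos, 56.2 ± 8.999 and 2.17 ± 0.552 CPM against 77.5 ± 6.43 and 3.18 ± 0.760 in WT, without a call (FDR = 0.216 and 0.188).

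Among the targets outside the members, *Etv5*, a close relative of *Etv4*, was at 62.7 ± 3.22 CPM in WT and 61.2 ± 2.48 in *Kat6a* E/E embryos and between 67.4 and 72.3 CPM in the other means, with log2 fold changes up to 0.14 and no call. *Dusp4*, another ERK phosphatase, was lower in *Kat6a*-/- (-0.20, FDR = 0.0553) and *Kat6a* E/E embryos (-0.19, FDR = 0.15) without passing the threshold, and it passed the F test over the 6 genotypes (FDR = 0.0345). *Il17rd*, a membrane inhibitor of FGF signaling, and *Spred1*, a Sprouty-related inhibitor, had log2 fold changes of -0.02 to 0.15 and 0.04 to 0.11 against WT, none called. The 16 transducers from *Frs2* to *Mapk3* had medians from -0.02 to 0.00 with no call against WT.

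**Figure D4:**
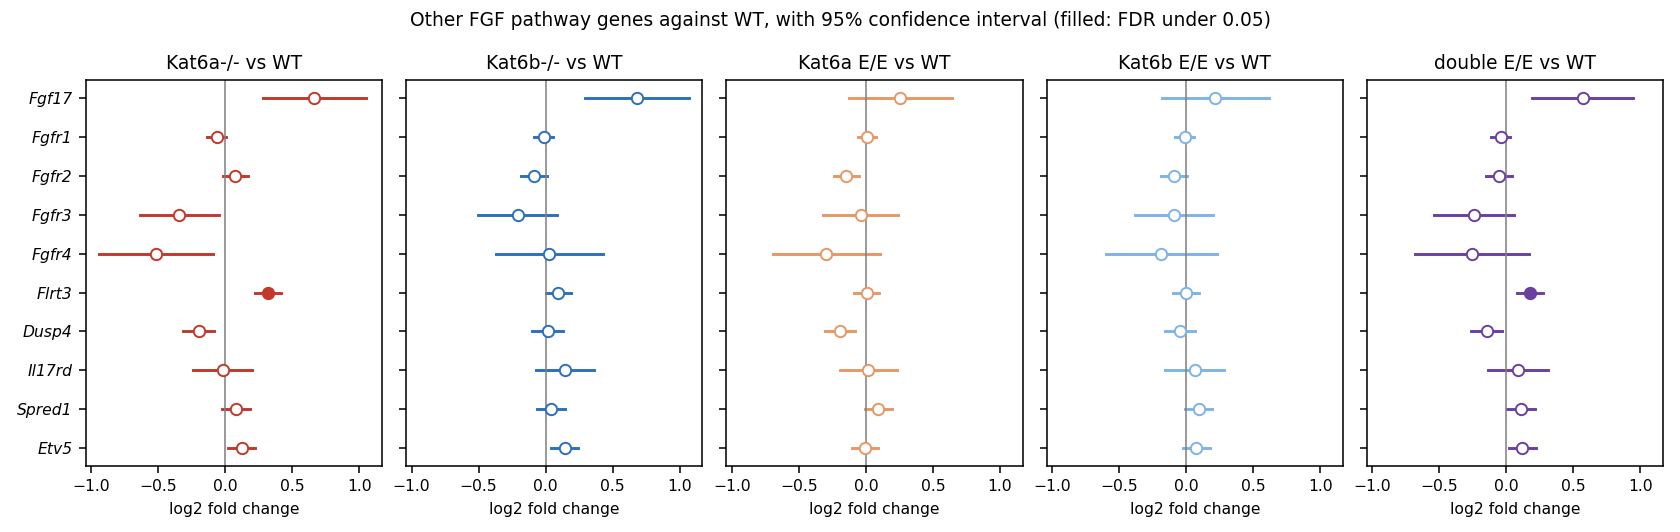
Log2 fold change against WT (horizontal axes) with 95% confidence interval of 10 FGF pathway genes that are not among the members: the ligand gene *Fgf17*, the receptor genes, *Flrt3* and the targets *Dusp4*, *Il17rd*, *Spred1* and *Etv5*. *Flrt3* in *Kat6a*-/- (0.32) and double E/E embryos (0.18), drawn as filled points, is called, and the *Fgfr1* values lie within 0.1 of 0.

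Whether the members vary together between embryos of 1 genotype was examined in the 45 pairs, as deviations of log2(CPM + 1) from the genotype mean over 24 embryos. No pair passed Benjamini-Hochberg adjustment over the 45 (permutation within genotypes, 100000 resamples). The pairs with the smallest p by Pearson's r were *Fgf15* with *Etv4* (r = -0.51, p = 0.0082, adjusted 0.232, Spearman's rho -0.58, p = 0.00983, adjusted 0.135) and *Dusp6* with *Etv4* (r = 0.56, p = 0.0133, adjusted 0.232, rho 0.58, p = 0.015, adjusted 0.135). Without the 2 embryos farthest from the median of the gene named first, r was -0.63 and 0.57. The 10 pairs among feedback targets had a median r of 0.26 and were positive in 7 cases, and the 20 pairs of a ligand with a target had a median of 0.15. The 9 pairs with *Fgfbp3* had a median of -0.23 and were positive in 2. Embryos of 1 litter are not independent, and library composition is shared by all pairs.

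**Figure D5:**
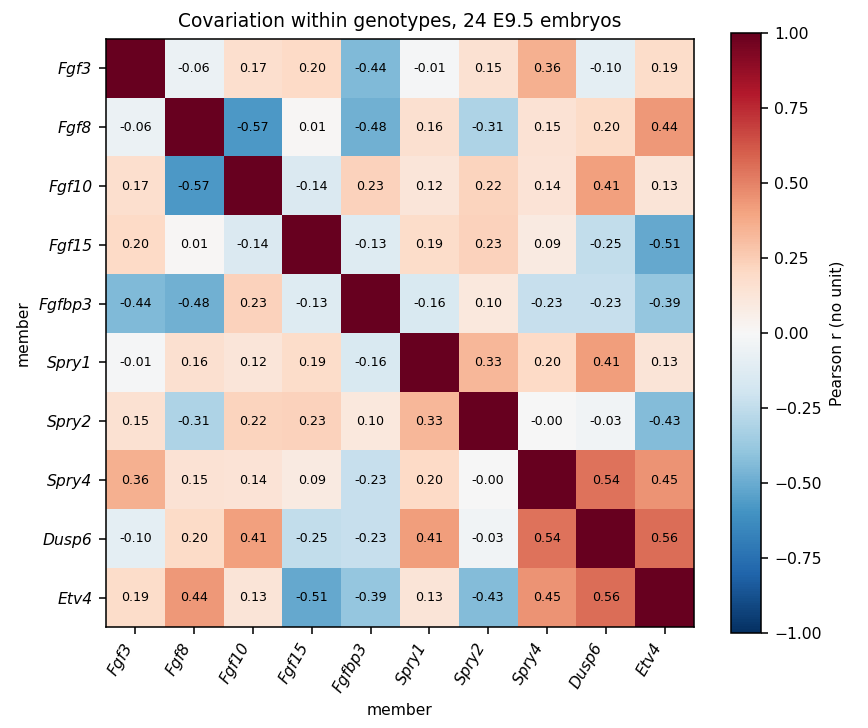
Pearson's r, written in each cell and shown by colour, between deviations from the genotype mean of log2(CPM + 1) for every pair of members over 24 embryos. The lowest value is -0.57 (*Fgf8* with *Fgf10*) and the highest 0.56 (*Dusp6* with *Etv4*), and no pair passed adjustment.

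Over the 24 embryos, genotype included, the pair of tested genes most like each member in log2(CPM + 1) was taken by Pearson's r, as a description. For *Fgfbp3* these were *Ntn1*, which encodes the floor plate guidance cue netrin 1 (r = 0.84), and the neural transcription factor gene *Bhlhe22* (0.83). For *Etv4* they were *Hoxc11*, a posterior Hox gene, and the retinoic acid receptor gene *Rarg* (0.86 each). For *Dusp6* they were *Hoxd8* and *Ets2* (0.81 each), for *Spry2* *Zfp770* and *Rpusd2* (0.81 each), and for *Spry1* *Abhd11* (0.79) and *Zfp955b* (0.76). For *Spry4* they were *Ern1* (0.76) and *Hoxd1* (0.74), for *Fgf15* *Ncapg* (0.77) and *Xpnpep3* (0.76), for *Fgf3* *Galnt7* (0.80) and *Eif2a* (0.76), for *Fgf10* *Ltbp1* (0.78) and *Igf2r* (0.76), and for *Fgf8* *Mtfr1* (0.73) and *Cyp1b1* (0.72).

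A further 16 libraries of the series came from E14.5 fetal liver cells negative for lineage markers and positive for SCA-1 and c-KIT (LSK cells). Neither null genotype was among them. WT fetuses gave 4 of these libraries, and each point mutant genotype, single or double, gave 4 as well. In the LSK libraries, 3 of the ligand genes were at or near 0. *Fgf8*, *Fgf10* and *Fgf15* had at most 5, 10 and 12 counts in a library, were at 0 in 9, 10 and 7 of the 16 and did not pass the filter on low counts. *Dusp6* (25.5 CPM on average), *Spry1* (8.69), *Spry2* (7.85), *Fgfbp3* (6.52), *Spry4* (4.13) and *Etv4* (1.41) were detected in every LSK library. *Fgf3* passed the filter at 1.36 CPM on average and was at 0 in 2 libraries, double E/E replicates 3 and 4. These averages include the mutants and are not levels of WT cells. Stage, tissue and library input differ between these sets, and no test was made between them.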

How the data were processed

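The deposited values are counts of read pairs per RefSeq gene, which the authors obtained with Rsubread align to mm39 and featureCounts. They are raw and unstranded, so antisense or overlapping transcripts cannot be separated. The authors' model was followed: protein-coding genes without Y-linked genes (types from a RefSeq GRCm38.p6 table, matched for 26359 genes with 52 left out), filterByExpr, TMM, 4 surrogate variables (wsva) and limma voomLmFit with litter as a random block (correlation 0.107) and robust moderation over all 24 E9.5 libraries. FDR is the Benjamini-Hochberg adjusted two-sided p over the 14183 genes tested in a comparison, and FDR under 0.05 is called. Positions are from GENCODE vM39 (GRCm39). CPM values are not adjusted for surrogate variables, unlike fold changes. Counts limit precision most for *Fgf3*. The fitting procedure was run on simulated counts with changes put into *Kat6a*-/- libraries. These counts held no litter effect and no unmeasured variation between libraries, so that run cannot check how the model handles either. Where separate embryos share a litter, replicates are not fully independent. The litters of *Kat6b* E/E and double E/E embryos held no WT embryo, so these genotypes cannot be compared with WT within a litter.

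The members and gene lists were chosen with earlier results of these data known. Named are the 10 members, *Kat6a*, *Kat6b*, other pathway genes called against WT, *Fgfr1* to *Fgfr4*, *Etv5*, *Dusp4*, *Il17rd*, *Spred1* and the pair of genes most like each member. Further genes (*Fgf4*, *Fgf17* and region markers) were named after their values were seen. Alternatives were 0, 2 or 6 surrogate variables, no litter block, edgeR, DESeq2, other scaling, filter, gene types and libraries, and omission of each library. The edgeR and DESeq2 fits held no litter term, so they treat litter mates as independent. R 4.3.3, limma 3.58.1, edgeR 4.0.16, DESeq2 1.42.0 and Python 3.11.15 were used. Protein sequences were not used here.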

Additional observations from a re-analysis of the deposited data

Results flagged for a closer look

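*Fgfbp3* differed between mutant genotypes of the same design: it was higher by 0.48 on the log2 scale in point mutant *Kat6a* E/E than in *Kat6a*-/- embryos (limma FDR = 0.0351) and its log2 fold change was -0.72 between *Kat6a*-/- and *Kat6b*-/- embryos (FDR = 0.00341). *Spry1* differed in the other direction, by -0.29 between *Kat6a* E/E and *Kat6a*-/- embryos (FDR = 0.0352).

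A single embryo stood apart from the other 3 of its genotype in 3 of 60 combinations of member and genotype, about the share that chance gives (1 in 20). *Fgf15* was at 24.9 CPM in double E/E replicate 4 and at 32.4 to 33.4 CPM in the other 3. *Fgfbp3* was at 28.1 CPM in WT replicate 1 and at 26.6 to 26.9 CPM in the others. *Spry1* was at 33.0 CPM in *Kat6a* E/E replicate 3 and at 33.6 to 33.7 CPM in the others.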

How the results depend on the processing

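The fall of *Fgfbp3* in *Kat6a*-/- embryos was called in all 14 other models and in all 24 fits that left out 1 library (log2 fold change -0.79 to -0.68, limma, edgeR or DESeq2 FDR 1.07e-06 to 0.0138). *Fgf15* in double E/E embryos was called in 9 of 14 other models. The number of members called in double E/E against WT was 0 with 0 or 2 surrogate variables, with edgeR without surrogate variables, without the 3 libraries with *Xist* and with only the libraries compared, and 0 to 2 when 1 library was left out. In *Kat6a* E/E against WT it was 1 with 6 surrogate variables and with DESeq2, and 0 to 1 when 1 library was left out. In *Kat6a* E/E against *Kat6a*-/- it was 0 with 0 surrogate variables and with only the libraries compared, 1 without the 3 libraries with *Xist* or without the 2 with the highest visceral endoderm levels, and 0 to 2 on leaving out 1 library. In *Kat6b* E/E against *Kat6b*-/- it was 1 with DESeq2 (0 to 1 on leaving out 1 library), and in double E/E against *Kat6a*-/- 2 with 6 surrogate variables and with DESeq2 and 1 without the filter on low counts (0 to 1). Between the null genotypes it was 2 without the litter block, with edgeR or DESeq2 with surrogate variables, without the filter and with only the libraries compared, 0 without the 3 libraries with *Xist*, and 1 to 2 on leaving out 1 library. Against the sum of single changes it was 1 with DESeq2 (0 to 1). The F test lost *Fgf15* in 4 and *Dusp6* in 2 of 12 other models, and it called 0 members with 0 surrogate variables and 2 to 5 on leaving out 1 library, the pairs of members that vary together numbered 0 to 1, and for the F test DESeq2 and the fit of only the libraries compared gave no value. The cause of these moves was not tested. No call reversed its direction.

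Replicate numbers did not clearly mark pairs: 7 of 20 same-numbered pairs with WT correlated above 0.1, and 8 of 24 libraries correlated best with their own number. Over all genotypes the median correlation was 0.07 for the same number and -0.02 for other numbers, a difference that was not tested. With the replicate block, 1 member (*Spry1*) was called in *Kat6a* E/E against *Kat6a*-/- in place of 2. The models without the *Xist* or visceral endoderm libraries were chosen after seeing the data. Depth limits *Fgf3* most, and DESeq2 gave it no adjusted p in several comparisons.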
